A study of Mus musculus with 10 samples.

Results

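Ribosome footprints that remained after a block of initiation by DMDA-PatA were compared with those that remained after premature chain release by puromycin, transcript by transcript. The compared transcripts were the listed coding transcripts with a mean value of at least 100 on the open reading frame (ORF) in the untreated libraries. This rule kept 8532 of 14534 coding transcripts, out of 15269 transcripts listed in all. The rule used no value of either drug. The transcripts just inside the limit were Myl7 and Gm10250 at 100.05, and those just outside were Fam20b at 99.9 and Tmx2 at 99.8. One transcript was listed for each gene. Of the 8532 transcripts, 8405 are annotated as protein coding in GENCODE M21.

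The cells were CGR8, embryonic stem cells of a strain 129 mouse kept as an established line, and were grown without feeder cells on gelatin with leukemia inhibitory factor. The 2 DMDA-PatA libraries came from cells kept with 1 µM of the drug for 10 min, and the 2 puromycin libraries from cells kept with 0.2 mg/ml for 20 min. The 2 untreated libraries, which serve here as the reference level, held the same amount of the solvent DMSO. Cycloheximide was added only after the cells had been cooled, and fragments protected from RNase I were sequenced. The drug and the incubation time changed together, so their parts cannot be told apart. The study's methods call the 2 replicates of a condition biological, and the labels do not say whether they were separate cultures, so the p-values measure the spread between these libraries.

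Translation of most mRNAs starts when the cap-binding complex eIF4F recruits a small ribosomal subunit, which then scans the 5' UTR to the start codon. eIF4A, the RNA helicase of eIF4F, is the target of DMDA-PatA, a derivative of the marine product pateamine A. With initiation blocked, ribosomes that are already on a coding sequence can still move on and leave it at the stop codon. Puromycin resembles the end of an aminoacyl-tRNA. It enters the ribosome, takes over the growing peptide and ends the chain, while new ribosomes can still load and start.

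The footprint values are reads scaled by the authors to equal numbers of reads from a spike-in RNA, and 1 read was worth 0.631 and 0.812 in the DMDA-PatA libraries and 2.07 and 1.24 in the puromycin libraries. The 8532 transcripts held 599414 and 726325 ORF reads with DMDA-PatA, and 846617 and 1504389 with puromycin. Of the marker lists for the cell type, all 10 embryonic stem cell markers passed the limit, with mean control values from 221 for Tdgf1 to 12115 for Dppa5a. Of 5 fibroblast markers 4 passed as well, from Dcn at 7.25, which did not, to Col1a1 at 14942. None of the 3 endoderm markers listed passed, their highest value being 44.4 for Gata4, while 3 of 3 mesoderm markers were between 278 and 636. Of the 2 neural markers listed, Tubb3 stood at 1687 and Pax6 at 70.9, below the limit. The trophoblast markers Gata3 and Cdx2 were at 140 and 164. The part of other cell states in the comparison was not tested.

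The ORFs kept a median of 3.58% and 5.29% of their control value in the DMDA-PatA libraries and of 15.4% and 16.0% in the puromycin libraries. On the authors' spike-in scale the median log2 difference, DMDA-PatA minus puromycin, was thus -1.78. The 5' UTRs kept far larger shares. Summed over the transcripts, the 5' UTR values stood at 56.7% and 89.6% of the control sum with DMDA-PatA and at 106% and 95.0% with puromycin. The 5' UTR held 37.4% and 37.7% of the 5' UTR and ORF reads with DMDA-PatA, 19.4% and 16.8% with puromycin, and 3.71% and 3.97% in the controls.

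To find transcripts that depart from this common difference, the median difference was removed before testing. A log2 difference of 0 below therefore means that a transcript differed between the drugs as the median transcript did. "Higher" and "lower" refer to the DMDA-PatA libraries relative to that median. With edgeR's quasi-likelihood test and Benjamini-Hochberg adjustment over 9157 coding transcripts, 22.1% were higher and 24.9% were lower at an adjusted p of 0.05 or less. Of the 8178 transcripts past the control limit that could be tested, 1923 were higher and 2049 lower, which is close to these shares because they make up most of the tested table. Of these, 1919 and 2035 differed in the same direction in all 4 pairs of a DMDA-PatA with a puromycin library. This was counted among called transcripts only, and the calls rest on the same 4 libraries, so it is no separate support. The difference passed a factor of 2 for 1293 of the higher and 1534 of the lower transcripts. A further 354 transcripts had too few reads for a test. Of the tested ones, 54 passed the read filter through the DMDA-PatA libraries alone and had to be higher. Another 520 passed through the puromycin libraries alone. These libraries hold more ORF reads, so this favoured a lower value without forcing it.

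The start codon and its surroundings are shown for 10 transcripts, since the length of the sequence before the start codon was 1 of the features with which the difference varied. The letters come from the GENCODE M21 transcripts on GRCm38, the positions are those of the listed transcript, and capitals mark the start codon. Of 105 transcripts with ATGGCGGC at the start of the coding sequence and a 5' UTR of at most 30 nt, 4 are shown. They were picked for large positive differences on the ORF among those with at least 100 reads. ATGGCGGC is the core of the TISU element, a start site known from mRNAs that begin translation with almost no scanning.
Bud13 (chr9:46283008-46299110, plus strand): ctcgccgctgccATGgcggcagct
Map3k1 (chr13:111746428-111808993, minus strand): ccgcgagagaaaATGgcggcggcg
Kmt2b (chr7:30568858-30588726, minus strand): ggtgccaagATGgcggcggcg
Tnks (chr8:34826460-34965690, minus strand): gggagtgggaagATGgcggcgtcg
A further 3 transcripts, also picked for large positive differences, have leaders under 25 nt without these letters.
Fat4 (chr3:38886940-39011985, plus strand): gaaactaggaccATGaacttggcc
Fanca (chr8:123268300-123318576, minus strand): gttccagacgctATGccgggctcg
Rlf (chr4:121145883-121215084, minus strand): ggccgtgggaagATGgcggacgga
The last 3 have leaders of 951, 529 and 279 nt and the largest negative differences on the ORF among those with a matched sequence and at least 100 reads.
Jun (chr4:95049034-95052222, minus strand): acggaccgttctATGactgcaaag
Cdc42se2 (chr11:54717456-54787675, minus strand): cggactgagagcATGagtgaattc
Rpl27 (chr11:101442446-101445529, plus strand): gtctctgcagagATGggcaagttc

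Long ORFs kept relatively more footprints with DMDA-PatA and short ORFs relatively more with puromycin. The median log2 difference was -0.89 for the 174 ORFs under 300 nt, -0.55 for 867 ORFs of 300 to 600 nt and -0.30 for 1469 ORFs of 600 to 1000 nt. It was 0.00 for 3048 ORFs of 1000 to 2000 nt, 0.28 for 1943 ORFs of 2000 to 4000 nt, 0.56 for 569 ORFs of 4000 to 8000 nt and 1.71 for 108 ORFs over 8000 nt. The medians of the 4 single library pairs ran from -0.88 to -0.81 in the shortest class and from 1.58 to 1.75 in the longest, so the step between these classes was larger than the spread between library pairs. Under 300 nt, 16 transcripts were higher and 100 lower, and over 8000 nt, 80 were higher and 1 was lower. Across the 8178 transcripts the log2 difference had a Spearman correlation of 0.347 with ORF length. This correlation is a description across transcripts of the same 4 libraries, in which long ORFs also hold more reads. With 2 libraries against 2, an exact permutation test of a class median cannot give a p under 0.333.

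**Figure D1:**
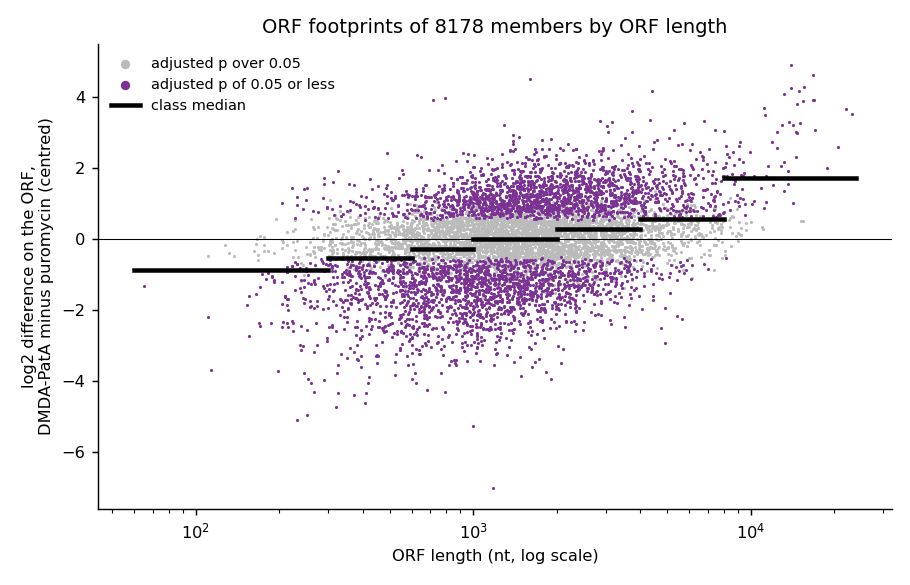
Log2 difference between DMDA-PatA and puromycin on the ORF, with the median difference removed, against ORF length in nt on a log axis, 1 point for each of 8178 transcripts. Purple points have an adjusted p of 0.05 or less in edgeR's test and black bars are the medians of the length classes, which climb from -0.89 under 300 nt to 1.71 over 8000 nt.

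The gradient was steeper in the puromycin libraries. ORFs under 300 nt kept a median of 50.8% and 51.8% of their control value with puromycin, ORFs of 1000 to 2000 nt kept 15.1% and 15.7%, and ORFs over 8000 nt kept 5.13% and 6.22%. With DMDA-PatA the same classes kept 6.18% and 9.29%, 3.53% and 5.25%, and 4.90% and 6.32%. The DMDA-PatA values were lowest for ORFs of 4000 to 8000 nt, at 2.99% and 4.11%, and went up again beyond that. For 20 ORFs of 12000 to 15000 nt they were 10.4% and 12.2%, and for 13 ORFs over 15000 nt they were 18.1% and 22.6%. Puromycin left 3.58% and 4.96%, and 5.99% and 8.96%, on these. In these 2 classes, and in none of the shorter ones examined, the medians of both DMDA-PatA libraries lay above those of both puromycin libraries.

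**Figure D2:**
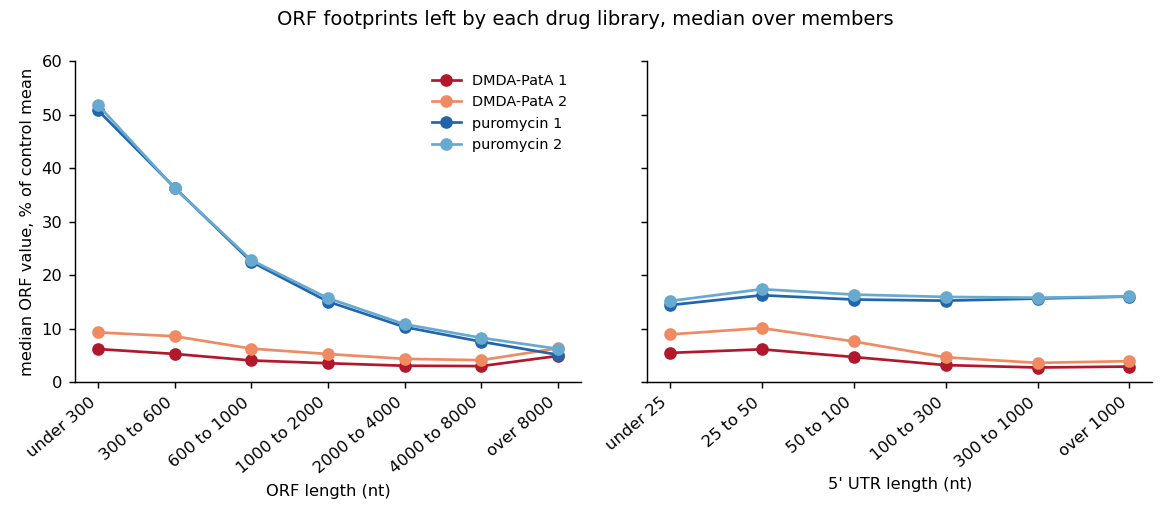
Median ORF value as a percentage of the mean control value in each of the 4 drug libraries, by ORF length on the left and by 5' UTR length on the right, both in nt. Puromycin falls from 50.8% and 51.8% to 5.13% and 6.22% with ORF length and stays between 14.4% and 17.4% with 5' UTR length, while DMDA-PatA falls from 6.13% and 10.1% to 2.73% and 3.60% as the 5' UTR lengthens from 25 to 50 nt to 300 to 1000 nt.

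On the spike-in scale, without removal of the median, 52 transcripts were higher with DMDA-PatA and 6481 lower by edgeR's test. Of the 52, 26 had an ORF over 8000 nt, a class with 108 tested transcripts, and the median ORF length of the 52 was 7731 nt.

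The largest positive differences belonged to giant proteins. Lrp2 encodes megalin, an endocytic receptor, and its ORF of 13980 nt stood at 3271 and 2800 in the controls, at 397 and 405 with DMDA-PatA and at 35.2 and 57.2 with puromycin. Its log2 difference was 4.88 ± 0.29 (SE; edgeR, adjusted p = 2.02e-19), and the naming rule required the same direction in all 4 library pairs. Mdn1, an AAA ATPase of ribosome assembly with an ORF of 16767 nt, had 2363 and 2522 with DMDA-PatA and 362 and 346 with puromycin, a difference of 4.60 ± 0.26. For Dync1h1, the heavy chain of cytoplasmic dynein, the values were 1051 and 1252 against 199 and 221. For Ubr4, a ubiquitin ligase, they were 1110 and 1243 against 182 and 245. All 4 kept between 12.6% and 22.2% of the control with DMDA-PatA and between 1.16% and 3.18% with puromycin.

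The next in order were Fat4, a giant cadherin, with a difference of 4.17 ± 0.39, and Hspg2, the matrix proteoglycan perlecan, with 4.08 ± 0.25. Hspg2 was at 1476 and 2388 with DMDA-PatA and at 358 and 412 with puromycin. Hmcn1, a matrix protein, Kmt2d, a histone H3 methyltransferase, and Rnf213, a ubiquitin ligase, had differences of 3.90, 3.89 and 3.86, and their ORFs measure 16902, 16764 and 15450 nt. The 3 longest ORFs of the set were those of Dst, Macf1 and Syne2, which encode proteins that bind the cytoskeleton or link it to the nucleus. Dst, with 23151 nt, was at 410 and 784 against 153 and 193, and Macf1, with 22059 nt, at 434 and 705 against 118 and 182. Syne2, with 20610 nt, had the least separation of the 3, at 58.7 and 75.5 against 45.5 and 33.6, and a difference of 2.58 ± 0.29 (edgeR, adjusted p = 1.73e-10).

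Among the 10 largest positive differences, that of Rps3a3 did not belong to a long ORF. Rps3a3, which GENCODE M21 lists as a processed pseudogene, has an ORF of 792 nt and stood at 30.9 and 57.6 with DMDA-PatA and at 10.3 and 8.70 with puromycin. Such a copy shares most of its sequence with an expressed ribosomal protein gene and the authors left out reads with more than 1 match on the genome, so its assignment is uncertain. Phgdh, an enzyme of serine synthesis, showed a difference of 4.49 but had only 32 reads with DMDA-PatA and 2 with puromycin. These were too few for the rule by which the largest differences are named here.

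Of the 10 transcripts at the negative end, Cdc42se2, 2310011J03Rik, Rpl28, Dynll2, Acbd6 and Rab7 passed the read filter through the puromycin libraries alone. The filter thus favoured a lower value for them. The same holds for Crispld2, Efna5, Zfp260, Cebpg and Zcchc18 below. Fat4, Rps3a3, Hmcn1 and Phgdh above passed through the DMDA-PatA libraries alone and had to be higher. The largest negative difference under the naming rule was that of Jun, a subunit of the AP-1 transcription factor. Its ORF of 1002 nt stood at 1214 and 979 in the controls, at 8.84 and 18.7 with DMDA-PatA and at 1731 and 1847 with puromycin. The log2 difference was -5.29 ± 0.29 (edgeR, adjusted p = 4.89e-20), and the puromycin values lay above both controls. Cdc42se2, an effector of the GTPase Cdc42, was at 2.53 and 4.06 with DMDA-PatA and at 341 and 373 with puromycin, a difference of -4.98 ± 0.36. Rpl27, a protein of the large ribosomal subunit, had 10.1 and 5.68 against 897 and 545, and its puromycin values again exceeded the controls at 362 and 415. For Bex3, a small adaptor protein, the values were 35.4 and 63.3 against 3369 and 3637.

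The other 6 transcripts at this end had 5' UTRs of 206 to 512 nt, and the 5 of them with more than 3 DMDA-PatA reads had differences from -4.33 to -3.98. For 2310011J03Rik, whose ORF had 3 reads with DMDA-PatA and 99 with puromycin, the centred ratio of puromycin to DMDA-PatA was 20.6, with a 95% counting interval from 6.85 to 102. Rpl28 was at 5.05 and 4.06 against 498 and 172. Dynll2, a dynein light chain, was at 2.53 and 5.68 against 285 and 270. Acbd6, an acyl-CoA binding protein, had 5.68 in both DMDA-PatA libraries and 312 and 356 with puromycin. Rab7, a GTPase of late endosomes, was at 3.79 and 4.87 against 258 and 244, and Atxn7l3b at 5.05 and 9.74 against 459 and 330. Zcchc18, chosen after its values were seen, had 0 reads in both DMDA-PatA libraries and 17 and 22 with puromycin.

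**Figure D3:**
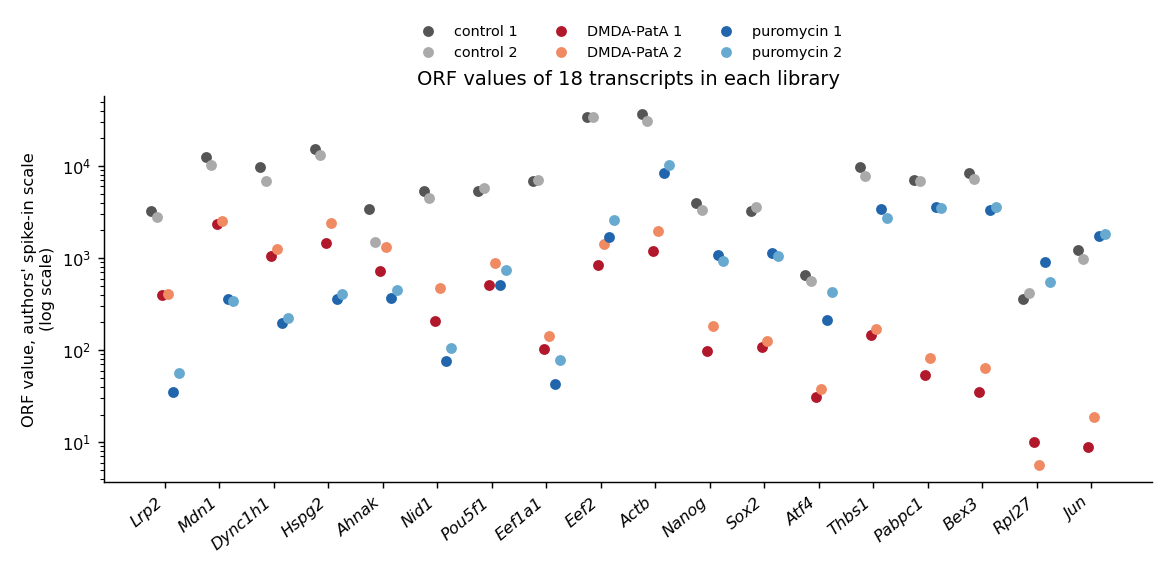
ORF values on the authors' spike-in scale, on a log axis, of 18 named transcripts in the 2 control, 2 DMDA-PatA and 2 puromycin libraries, 1 point for each library. The DMDA-PatA points lie above the puromycin points for Lrp2 at 397 and 405 against 35.2 and 57.2, and far below them for Jun at 8.84 and 18.7 against 1731 and 1847.

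Only 43 of the 8532 ORFs stood above both controls in both puromycin libraries, and 0 did so in both DMDA-PatA libraries. The 43 had a median ORF length of 390 nt. They held 24 histones and 5 of the immediate early and short-lived regulators, Jun and Ier5 among them. The 8532 hold 57 and 23 of these. Values of single histone copies are uncertain, and the controls of some were unlike, as for Hist1h2ah at 2418 and 237. On 5' UTRs the same count was 1757 with puromycin and 2087 with DMDA-PatA. It had no floor of reads, and 4047 of the 8532 5' UTRs had too few reads for a test. A 5' UTR with 0 in both controls counted with a few reads, as that of Ubr4 did at 1.89 and 4.87 with DMDA-PatA. The mRNA levels under the drugs were not measured in the libraries used here, so a change in footprints and a change in mRNA cannot be told apart.

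Short 5' UTRs went with relatively more ORF footprints under DMDA-PatA. The median log2 difference on the ORF was 0.68 for 442 transcripts with a 5' UTR under 25 nt, 0.60 for 679 of 25 to 50 nt and 0.36 for 1413 of 50 to 100 nt. It was -0.20 for 3830 transcripts of 100 to 300 nt, -0.42 for 1737 of 300 to 1000 nt and -0.26 for 77 over 1000 nt. The medians of the single library pairs ran from 0.54 to 0.74 in the shortest class and from -0.54 to -0.32 at 300 to 1000 nt. Under 25 nt, 217 transcripts were higher and 36 lower. At 300 to 1000 nt, 224 were higher and 638 lower. The classes under 25 and 25 to 50 nt did not differ beyond their spread, and neither did the 2 longest. The class under 25 nt takes in transcripts listed without any 5' UTR, which number 79 of the 8532. The listed 5' UTR length equalled that in GENCODE M21 for 6436 of 8167 transcripts with a matched sequence, so single lengths are uncertain.

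With all ORF lengths pooled, this gradient was seen in the DMDA-PatA libraries. Transcripts with 5' UTRs under 25 nt kept 5.46% and 8.92% of the control ORF value with DMDA-PatA and 14.4% and 15.2% with puromycin. Those with 300 to 1000 nt kept 2.73% and 3.60% with DMDA-PatA and 15.6% and 15.8% with puromycin. Over all 6 classes the puromycin medians lay between 14.4% and 17.4%. The Spearman correlation of the log2 difference with 5' UTR length was -0.350 over the 8178 transcripts, and the lengths of ORF and 5' UTR themselves correlated at 0.132. With the GC content of the 5' UTR, known for 7484 of them, it was 0.123.

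Both gradients were present together. Within each of the 7 ORF length classes the median fell from 5' UTRs under 50 nt over those of 50 to 300 nt to those of 300 nt or more. For ORFs of 1000 to 2000 nt the 3 medians were 0.74, 0.03 and -0.59, over 400, 1977 and 671 transcripts. For ORFs under 300 nt they were -0.17, -0.91 and -1.97, and for ORFs over 8000 nt they were 2.86, 1.71 and 0.91. Among ORFs over 8000 nt with a 5' UTR under 50 nt, 19 of 20 were higher. Among ORFs under 300 nt with a 5' UTR of 300 nt or more, 26 of 31 were lower.

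**Figure D4:**
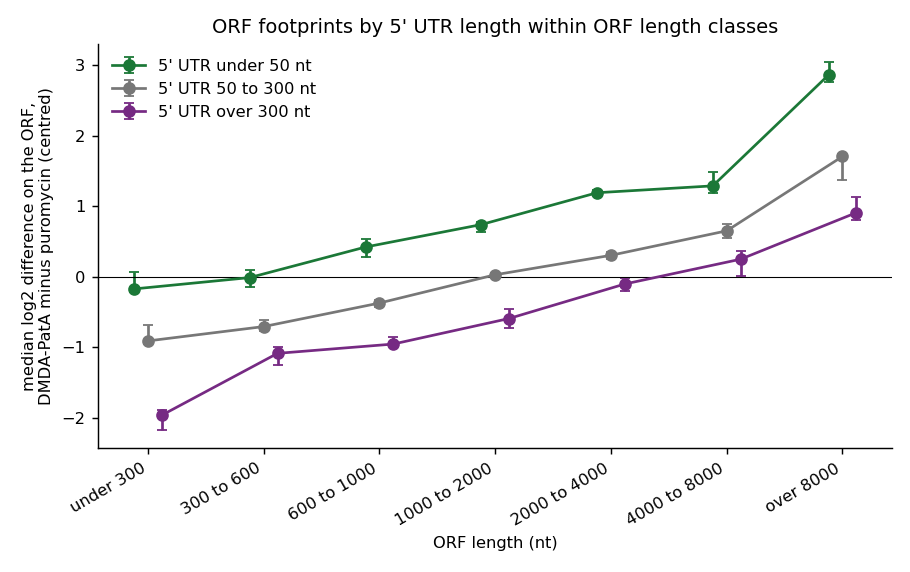
Median log2 difference on the ORF, DMDA-PatA minus puromycin with the median removed, for 3 classes of 5' UTR length within 7 classes of ORF length, both in nt. Bars span the medians of the 4 single library pairs, and in each ORF class the transcripts with 5' UTRs under 50 nt lie highest, as at 1000 to 2000 nt with 0.74 against 0.03 and -0.59.

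After the trend with ORF length was removed from each library, 22.6% of the 9157 tested transcripts were higher and 22.5% lower. Of the 8178, 1931 were higher and 1892 lower. The medians by 5' UTR length were then 0.76 under 25 nt, 0.73 for 25 to 50 nt, then 0.48 for 50 to 100 nt, against -0.20, -0.54 and -0.28 in the 3 longer classes, and the Spearman correlation with 5' UTR length was -0.433. Under the naming rule, the largest positive values after this step were those of Rps3a3 and Lrp2, then of Nid1, a basement membrane linker, at 3.18, Wiz, a zinc finger partner of H3K9 methyltransferases, at 3.02, and Calu, a calcium-binding protein of the secretory pathway, at 2.97. Nid1 was at 208 and 473 with DMDA-PatA and at 76.5 and 104 with puromycin. At the other end stood Jun at -5.08, Cdc42se2 at -4.14, Pabpc1 at -4.07, Rpl27 at -3.99 and Crispld2, a secreted protein, at -3.89. Pabpc1, the cytoplasmic poly(A)-binding protein, was at 54.3 and 82.0 with DMDA-PatA and at 3600 and 3498 with puromycin.

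The letters ATGGCGGC, searched on the coding strand at the start of the coding sequence only, begin 444 of 13800 coding sequences with a matched transcript, or 3.22%, and 17.8% of the 590 matched members with a 5' UTR of at most 30 nt. Of the 102 tested transcripts with both features, 64 were higher and 3 lower, with a median of 0.87 and single library pairs from 0.76 to 0.99. The 466 tested transcripts with another start and an equally short 5' UTR had 212 higher, 39 lower and a median of 0.64, with pairs from 0.50 to 0.70. With ATGGCGGC behind a 5' UTR over 30 nt the median was 0.69 over 258 transcripts. The match is a description of letters and no start site was mapped here.

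Bud13, a spliceosome-associated protein, stood at 60.6 and 95.0 with DMDA-PatA and at 22.7 and 48.5 with puromycin, a difference of 2.80 ± 0.29 (edgeR, adjusted p = 2.07e-11). Tnks, the poly-ADP-ribosyltransferase tankyrase, was at 163 and 282 against 103 and 141, and Kmt2b, a histone H3 methyltransferase, at 102 and 153 against 47.6 and 88.3. Map3k1, a stress-responsive kinase, was at 44.2 and 60.1 against 24.8 and 28.6. Fanca, of the Fanconi anaemia DNA repair complex, had 75.8 and 130 against 22.7 and 42.3, a difference of 3.33, and Rlf, a zinc finger protein, had 3.27 with 119 and 179 against 57.9 and 48.5. Short leaders also occurred among the lower transcripts. Anp32e, a chaperone of the histone H2A.Z, has a 5' UTR of 15 nt and was at 21.5 and 24.4 with DMDA-PatA against 926 and 940 with puromycin, a difference of -3.55 ± 0.26. Efna5, an ephrin ligand with 14 nt, had -3.21, and the histone Hist1h2ba, with no annotated 5' UTR, had -2.48. The ORFs of these 3 measure 327, 603 and 381 nt.

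Of the 3 shortest ORFs, Phc2 is listed with 65 nt, so the listed frame is not the full coding sequence of this Polycomb protein. It was at 7.58 and 9.74 with DMDA-PatA and at 95.1 and 58.4 with puromycin. Ost4, a subunit of the oligosaccharyltransferase, was at 24.6 and 35.7 against 596 and 349, and Sh3bgrl3 at 13.3 and 23.5 against 93.1 and 82.1. The differences were -1.32, -2.19 and -0.49, the last with an adjusted p of 0.188 in edgeR's test.

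The gene lists were compared by their medians, before and after removal of the length trend. Over all 8178 tested members 23.5% were higher and 25.1% lower, and 23.6% and 23.1% after that removal. The counts of each list stand beside these shares. Of 25 motor and giant scaffold proteins 20 were higher and 3 lower, with a median of 2.05, beside a median of -0.01 over all tested members, and the median was 0.67 after the trend was removed. The list was put together for length, and its 3 lower members, Myh10, Kif1b and Myh9, include Myh10 with a listed ORF of only 693 nt. Ahnak, a scaffold protein with 16968 nt, was at 727 and 1326 with DMDA-PatA and at 368 and 454 with puromycin, and at 3412 and 1514 in the controls. Of 18 basement membrane and matrix genes 12 were higher and 3 lower, with medians of 1.52 and, after removal of the trend, 0.78. Lama5, a laminin chain, had a difference of 3.68 ± 0.25. The 3 lower genes were Thbs1, at 147 and 168 against 3429 and 2714, and the collagen IV chains Col4a2 and Col4a5. The 5' UTRs of Thbs1 and Col4a2 measure 228 and 355 nt.

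Among the lists of the translation machinery, 16 of 32 aminoacyl-tRNA synthetases were higher and 3 lower, with a median of 0.71 and of 0.51 after the trend was removed. The 2 highest were the mitochondrial enzymes Sars2 and Cars2, at 2.30 and 2.11. Of 68 mitochondrial ribosomal proteins 23 were higher and 7 lower, with a median of 0.33. After removal of the trend 45 were higher and 6 lower, and the median was 0.84. Mrpl44 was at 147 and 262 with DMDA-PatA and at 196 and 143 with puromycin, with a difference of 2.02, and Mrpl55, with a 5' UTR of 229 nt, at 8.21 and 8.93 against 238 and 240. Of 32 cytosolic ribosomal proteins 8 were higher and 8 lower, or 25% each way beside 23.5% and 25.1% over all tested members, with a median of -0.12, and 14 higher and 6 lower with a median of 0.48 after removal of the trend. Rpl14, with a 5' UTR of 22 nt, had 2.29, while Rpl27 and Rpl28, listed with 279 and 339 nt, had -4.64 and -4.33. Most genes of this family have processed copies in the genome, and only 35 of 78 listed transcripts passed the control limit.

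Respiratory chain subunits, most of them made in the cytosol and imported into mitochondria, had 17 higher and 18 lower of 71, or 23.9% and 25.4%, close to the shares over all members. Their median was -0.01, which moved to 0.58 with 34 higher and 8 lower after removal of the trend. Ndufa9, with a 5' UTR of 32 nt, was at 150 and 269 with DMDA-PatA and 120 and 203 with puromycin, a difference of 2.09. Ndufb10, with 144 nt, was at 39.1 and 56.8 against 527 and 705, a difference of -1.92. Of 36 proteasome subunits 6 were higher, led by Psmd5 at 1.60, and 6 lower, led by Psmd14 at -2.28, and their median was 0.02. Either share was 16.7%, below that over all members. The CCT chaperonin folds actin and tubulin, and its 8 subunits had 3 higher and 2 lower, or 37.5% and 25%. Cct6a, listed by a transcript without protein annotation in GENCODE M21, had 1.51 and Cct4 -1.76. The listed Tcp1 frame of 309 nt, shorter than the subunit, was at 85.9 and 149 against 2087 and 2155.

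**Figure D5:**
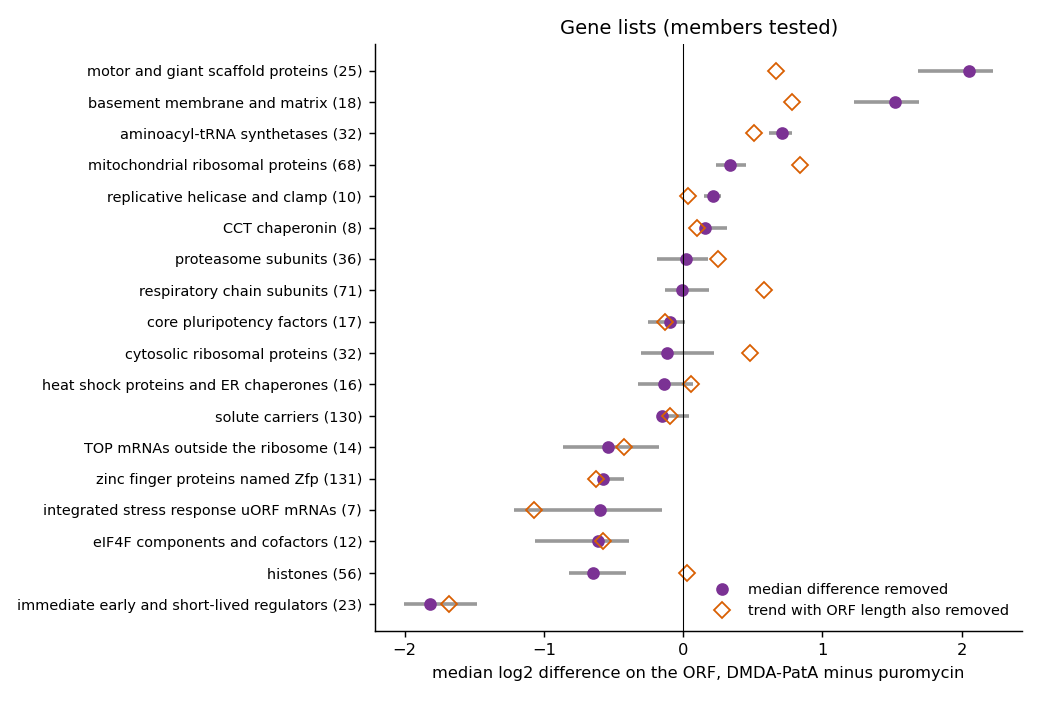
Median log2 difference on the ORF of 18 gene lists, DMDA-PatA minus puromycin, with the number of tested members in parentheses. Circles have the median of all members removed, grey bars span the 4 single library pairs, and diamonds also have the trend with ORF length removed, which moves the giant scaffold proteins from 2.05 to 0.67 and the histones from -0.65 to 0.03.

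Immediate early and short-lived regulators had the lowest median of the 18 lists. Of 23 genes 18 were lower and 2 higher, with a median of -1.82 and no single library pair above -1.48, and removal of the length trend left it at -1.68. Besides Jun, Ier5 stood at 8.21 and 31.7 with DMDA-PatA against 720 and 429 with puromycin and 253 and 192 in the controls. Myc, Junb, Mycn, Fosl2, Egr1 and Atf3 were also among the lower genes. The 2 higher were Mcl1, an antiapoptotic protein, at 0.66, and Id1, an inhibitor of bHLH factors, at 0.60. The part of their mRNA levels in these differences was not tested.

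Histones had 30 lower and 5 higher of 56 and a median of -0.65. After removal of the length trend 12 were higher, 12 lower and the median was 0.03. Replication-dependent histone mRNAs are short, with short leaders, and end in a stem-loop in place of a poly(A) tail. The replacement histones H1f0 and H2afy, with 5' UTRs of 510 and 319 nt, had the lowest differences, -3.55 and -2.56, and Hist1h3e, with 4 nt, the highest, 0.91. Copies in the histone clusters are near identical and only uniquely placed reads were kept, so values of single copies are uncertain. Zinc finger proteins named Zfp had 51 lower and 16 higher of 131, with medians of -0.58 and, after removal of the trend, -0.63. Zfp260, with a 5' UTR of 1060 nt, was at 5.68 and 3.25 against 145 and 158, and Zfp318, with an ORF of 6711 nt, had 2.30. Of 130 solute carriers, which transport ions and nutrients across membranes, 21 were higher and 30 lower, or 16.2% and 23.1%. Slc30a9 was at 2.22 and Slc31a1 at -2.78.

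Of 17 factors of the stem cell state 3 were higher and 6 lower, with a median of -0.10. The shares were 17.6% and 35.3%, beside 23.5% and 25.1% over all tested members. Pou5f1, the POU factor Oct4, was at 515 and 881 with DMDA-PatA and at 511 and 742 with puromycin, overlapping values that correspond to a centred difference of 1.90 ± 0.23 (edgeR, adjusted p = 1.56e-09). Esrrb was at 536 and 842 against 1193 and 1373, with a difference of 0.86. Sox2 was at 108 and 127 against 1142 and 1045, with -1.43, and Nanog at 98.5 and 181 against 1090 and 931, with -1.12. Klf5 and Klf4, with 5' UTRs of 304 and 595 nt, had -2.40 and -1.57. The 5' UTRs of Pou5f1 and Esrrb measure 63 and 42 nt, that of Sox2 411 nt and that of Nanog 90 nt.

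Among the components and cofactors of eIF4F, the complex that holds the target of DMDA-PatA, 3 of 12 were higher and 6 lower, or 25% and 50%. Their median was -0.61, with pairs from -1.07 to -0.39. The helicase Eif4a2, with a 5' UTR of 33 nt, was at 166 and 280 against 339 and 423, a difference of 0.97. Eif4ebp2, an inhibitor of the cap-binding protein, was at 6.94 and 8.12 against 213 and 233, a difference of -3.09. Transcripts with a 5' terminal oligopyrimidine tract outside the ribosome had 4 higher and 7 lower of 14, or 28.6% and 50%. The elongation factor Eef1a1 was at 104 and 144 with DMDA-PatA and at 43.4 and 78.3 with puromycin, a difference of 2.75, and Eef2 had 0.83. The nucleolar protein Npm1 had -2.41. Of 7 mRNAs regulated by upstream ORFs in the integrated stress response, Eprs was higher, at 0.64, and Cebpg, Gadd45a and Atf4 were lower, at -3.50, -2.42 and -1.44. Of 16 heat shock proteins and chaperones of the endoplasmic reticulum 4 were higher and 6 lower, or 25% and 37.5%. Hspd1 was at 2.09, Hspa5 at -1.82 and Hsp90b1 at -1.41. Of 10 replication genes 3 were higher, with Rfc2 at 0.90, and 3 lower, with Mcm7 at -1.64 and Pcna at -0.83, or 30% each way. Actb was at 1201 and 1993 against 8317 and 10363, a difference of -0.80.

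The same test on the 5' UTR, with its own median removed, covered 5190 transcripts, of which 26.3% were higher and 24.8% lower with DMDA-PatA. Of 4485 tested members 1252 were higher and 1081 lower, so that 53.7% of the calls were higher. That share was 34.2% on the spike-in scale and 36.4% when each library had to hold at least 10 reads. A further 4047 members had too few 5' UTR reads, among them all with a 5' UTR under 25 nt, and 772 passed the filter through the DMDA-PatA libraries alone and 126 through puromycin alone. The median log2 difference was 2.95 for 78 transcripts with 5' UTRs of 25 to 50 nt, 1.92 for 471 of 50 to 100 nt, 0.36 for 2375 of 100 to 300 nt, -0.72 for 1487 of 300 to 1000 nt and -1.08 for 74 over 1000 nt. These medians cover only 5' UTRs that passed the filter. The classes of 25 to 50 and 50 to 100 nt hold 696 and 1456 members, so most of theirs were left out. The part of this selection in the gradient was not tested. On the authors' scale the median over the 5' UTRs was -0.45.

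The 5 short 5' UTRs at the top of this comparison passed the read filter through the DMDA-PatA libraries alone. These libraries hold more 5' UTR reads, so this favoured a higher value without forcing it. That of Timm8b, a mitochondrial import chaperone, stood at 33.5 and 68.2 with DMDA-PatA and had 0 reads with puromycin, at least 15.2-fold higher on the centred scale against a floor of 3 reads in each puromycin library. Hist1h3a was at 29.7 and 64.1, at least 14.0-fold higher by the same floor. Vps16, of the endosomal tethering complexes, had 324 reads with DMDA-PatA and 1 with puromycin. Krt18, a keratin, had 284 and 1, and Ier3 had 493 and 2. The centred ratios were 216, 189 and 164, with counting intervals from 38.5 to 8550, from 33.7 to 7497 and from 45.2 to 1360. These 95% intervals are exact binomial ones, and like the floor they cover counting error only.

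The 5 at the other end, with 5' UTRs of 127 to 337 nt, passed the filter through the puromycin libraries alone and had to differ. Srcap, an ATPase of chromatin remodelling, was at 2.53 and 4.06 on its 5' UTR with DMDA-PatA and at 170 and 142 with puromycin, a difference of -4.99. Fxr2, an RNA-binding relative of the fragile X protein, was at 4.42 and 2.44 against 155 and 138, with -4.75. Morc2a, Fam76b and Nfatc3 had -4.04, -3.91 and -3.87. Of the transcripts named for their ORF, the 5' UTR of Jun was at 348 and 488 against 3160 and 2055, with -2.08, that of Atf4 at 281 and 463 against 2151 and 3030, with -2.30, and that of Actb at 259 and 399 against 49.6 and 48.5, with 3.26. Sox2 had 931 and 1347 against 1690 and 1220 on the 5' UTR, where the groups overlapped, with a difference of 0.20 (edgeR, adjusted p = 0.515).

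The ratio of 5' UTR to ORF reads was tested in 1 model with each library as a block and with no median removed. Of 4617 transcripts 67.5% had a higher ratio with DMDA-PatA and 3.51% a lower ratio. Of 4354 tested members 2946 were higher and 153 lower, 3780 had a positive difference, and the median was 1.96 on the log2 scale. The ratio difference fell with ORF length, from a median of 3.62 under 300 nt over 1.97 at 1000 to 2000 nt to 0.42 at 4000 to 8000 nt, and it was -0.70 over 8000 nt, where 5 of 52 were higher and 16 lower. It also fell with 5' UTR length, from 4.62 for 77 transcripts at 25 to 50 nt to 1.29 for 1411 at 300 to 1000 nt. Short 5' UTRs entered only with enough reads, and the part of this selection in the fall was not tested. Histones had 26 of 26 higher, with a median of 5.56, respiratory chain subunits 38 of 40 and proteasome subunits 18 of 19. Among motor and giant scaffold proteins 4 of 17 were higher and 8 lower.

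The share of reads on the 5' UTR makes these differences visible. For Jun it was 97.5% and 96.3% with DMDA-PatA and 64.6% and 52.7% with puromycin. For Pabpc1 it was 79.6% and 77.8% against 21.4% and 22.1%, for Sox2 89.6% and 91.4% against 59.7% and 53.9%, and for Actb 17.7% and 16.7% against 0.593% and 0.466%. Hist1h4b had 508 and 503 on its 5' UTR against 2.07 and 11.2, with a ratio difference of 8.59. Timm8b, Tspyl1, Hist1h3a and Pgpep1 had 0 puromycin reads on the 5' UTR, and these 4 and Hist1h4b passed the 5' UTR filter through DMDA-PatA alone. The DMDA-PatA and puromycin libraries did not overlap in these shares.

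In the opposite direction, the 5' UTRs of the 5 transcripts with the lowest ratio difference passed the read filter through the puromycin libraries alone. Kmt2d had 0.248% and 0.354% of its reads on the 5' UTR with DMDA-PatA and 37.8% and 27.6% with puromycin, a ratio difference of -7.22, which rested on 5 reads with DMDA-PatA. For Fxr2 the shares were 4.96% and 1.95% against 51.7% and 39.2%, and for Ahnak 21.9% and 21.8% against 63.1% and 72.2%. Dync1h1 had 2.97% and 3.92% against 17.9% and 19.8%. R3hdm2, Srcap and Tnk2 completed the 5 lowest, at -3.38, -3.33 and -3.28. Atf4, whose 5' UTR carries upstream ORFs, had 90.1% and 92.4% against 91.0% and 87.7%, with a ratio difference of 0.32 (edgeR, adjusted p = 0.42). Nanog had 6.59% and 7.85% against 5.39% and 6.14%, with 0.36.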

How the data were processed

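Footprints of CGR8 cells were measured in 2 DMDA-PatA, 2 puromycin and 2 control libraries. The deposited values are a signal: read counts per ORF and 5' UTR that the authors divided by DESeq2 size factors from spike-in reads. Before that, the authors aligned the reads with LifeScope, left out reads with several genomic matches, and assigned footprints by the P-site. The submitters' processing notes name the build mm10 and Picard 1.38. Every value was a whole multiple (within 0.01 reads) of the value of 1 read, so whole reads were recovered. 656 ORFs with a blank 5' UTR value were taken as 0 there.

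Reads were tested with edgeR 4.0.16 (quasi-likelihood, Benjamini-Hochberg adjusted p of 0.05 or less, R 4.3.3), with at least 10 reads in at least 2 of the 4 drug libraries and with median-of-ratios scaling over the 8532 transcripts, which removes the median difference. The SE printed with a log2 difference is its absolute value divided by the square root of the test's F statistic. The ratio was tested as an interaction with library blocks. The length trend was a loess curve of span 0.5 against log2 ORF length. The scripts were tested on simulated data. Alternatives used limma 3.58.1, DESeq2 1.42.0, other scalings, filters and members. limma, the protein-coding restriction and the start codon alternatives were chosen after seeing the data.

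The largest differences were named 10 each way on the ORF and 5 each way on the 5' UTR, ratio and trend-removed ORF. These had at least 100 reads over the 4 libraries and the same direction in all 4 library pairs. Named with the read rule only were 3 each way with 5' UTRs under 25 nt. Neither rule held for the 3 longest and 3 shortest ORFs or for up to 2 each way per list. Nor did it hold for Eef2, Jun, Pou5f1, Sox2, Nanog, Actb, Ahnak and Atf4, which were always named. Mcl1, a list member, had the same direction in only 3 pairs. The start codon examples, Phgdh, Zcchc18, and further list members named were chosen after their values were seen. The transcripts and lists were chosen with earlier results of these data known. Columns of other samples left unused numbered 0. Figures used Python 3.11.15 and matplotlib 3.10.9.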

Additional observations from a re-analysis of the deposited data

How the results depend on the processing

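With the authors' spike-in factors, 52 ORFs were higher and 6481 lower with DMDA-PatA, and 625 5' UTRs were higher and 1203 lower. The medians by ORF length were then -2.68, -2.32, -2.07, -1.77, -1.49, -1.23 and -0.055 from shortest to longest, those by 5' UTR length -1.09, -1.16, -1.40, -1.97, -2.21 and -2.05, and that of ATGGCGGC starts behind short 5' UTRs -0.90. These factors shift all transcripts by nearly the same amount, which fixes the order of the classes. Lists with a median above 0 numbered 7, against 1 on that scale and 11 with the length trend removed. List medians that changed sign on the spike-in scale were mitochondrial ribosomal proteins at -1.41, aminoacyl-tRNA synthetases at -1.07, CCT chaperonin at -1.61, proteasome subunits at -1.74, basement membrane at -0.24 and replication at -1.54. With the trend removed, histones went to 0.028, cytosolic ribosomal proteins to 0.48, the respiratory chain to 0.58 and heat shock proteins to 0.056. Called single genes that changed sign on the spike-in scale were Hist1h3e at -0.82, Psmd5 at -0.22, Cct6a at -0.25, Eef2 at -0.92, Esrrb at -0.90, Mcl1 at -1.09, Id1 at -1.14, Eprs at -1.13, Eif4a2 at -0.78 and Rfc2 at -0.84, and Phc2 went to 0.055 with the trend removed, as did Sh3bgrl3, which was not called, to 0.67. Of 1558 values of single genes under alternatives, 1510 kept direction and call. DESeq2 called 1245 higher and 1295 lower ORFs, 673 lower 5' UTRs and 92 lower ratios. With at least 10 reads in each library, which tests fewer transcripts, 495 5' UTRs were higher, and 1479 ratios were higher and 90 lower. Among transcripts at 500 or more in the controls, medians were -0.80, -0.38 and 0.061 for ORFs under 300, of 600 to 1000 and of 1000 to 2000 nt, and -0.13 and -0.040 for 5' UTRs of 100 to 300 and over 1000 nt. With the trend removed, 5' UTRs of 25 to 50, 50 to 100 and 300 to 1000 nt had 0.73, 0.48 and -0.54. The causes were not tested. Leaving out 1 library at a time gave 86 to 123 lower ratios, the lowest without DMDA-PatA replicate 1. It gave medians from -0.93 to -0.79, -0.66 to -0.51, -0.39 to -0.27, 0.0035 to 0.021 and 0.24 to 0.29 for the first 5 ORF classes and 1.51 to 1.72 over 8000 nt. By 5' UTR length it gave 0.58 to 0.72 under 25, 0.31 to 0.44 at 50 to 100, -0.20 to -0.17 at 100 to 300 and -0.50 to -0.21 over 1000 nt, and 0.74 to 0.99 for ATGGCGGC starts. With the replicate number as a block, 1977 ORFs were higher and 2090 lower, 1261 and 1103 5' UTRs, and 2950 and 150 ratios. Libraries of the same number did not deviate together (r = 0.0025 on ORFs and 0.011 on 5' UTRs, across transcripts). With 4 libraries this cannot show whether the number pairs them. Transcripts with few reads limit the test, as 354 ORFs and 4047 5' UTRs were not tested.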
